A study of Mus musculus with 9 samples.

Results

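The S100 genes described here are 8 genes of the S100 family of small calcium-binding proteins, S100a1, S100a4, S100a6, S100a8, S100a9, S100a10, S100a11 and S100a13, picked by symbol from a table of 35321 genes measured by RNA-seq in mouse tumours. The tumours grew from Lewis lung carcinoma (LLC) cells, an established carcinoma line of C57BL/6 origin, placed under the skin of the flank of male C57BL/6 mice 4 to 5 weeks old. From day 5 after injection the mice received intraperitoneal PBS, the vehicle, or else digoxin, at a low dose of 0.1 mg/kg or a high dose of 1 mg/kg, and each group has 3 samples. All groups share the tumour line, the host strain and the injection site, the host keeps its own immune system, and the number of doses and the day of collection are not known here. Digoxin is a cardiac glycoside, an inhibitor of the sodium pump, and the question of the design is how a low and a high dose alter the transcriptome of the tumour. Nothing in the labels ties each sample to a mouse of its own, so the p-values below reflect the spread among these particular samples, and that spread may be technical. A tumour counted below is 1 tumour sample.

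S100 proteins form dimers that bind calcium and then dock onto partner proteins, and several of them leave stressed or dying cells and act as alarmins, signals of damage read by receptors such as TLR4 and RAGE. S100A8 and S100A9 pair as calprotectin, which fills the cytosol of neutrophils and is made by monocytes, and tumours recruit such myeloid cells. S100A4, S100A6, S100A10 and S100A11 are made by many carcinoma and stromal cells, where they bind annexins, myosin and other proteins of the membrane and cytoskeleton, while S100A1 is best known from heart and skeletal muscle and S100A13 from the release of FGF1 and interleukin 1 alpha.

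Digoxin tumours carried more RNA of S100a8, S100a10 and S100a11 at both doses, more S100a9 at 1 mg/kg, and less S100a1 and S100a13 at 1 mg/kg, while S100a4 and S100a6 passed the test at neither dose. For the low dose the S100a11 call held without any of the 9 libraries, whereas those of S100a10 and S100a8 were each lost when any 1 of 3 libraries was left out. The S100a8 values at 0.1 mg/kg overlapped vehicle. Without vehicle replicate 2 or 3 only 1 of 8 members passed at 0.1 mg/kg, where 25.5% and 25.4% of all tested genes did. Levels are FPKM, fragments scaled by transcript length and by library depth, which can be compared between genes, and each test is limma on log2(FPKM + 1) over the 13687 genes that reached 1 FPKM in at least 3 samples, with Benjamini-Hochberg adjustment and a threshold of 0.05. All 8 members passed that filter. At 0.1 mg/kg 3 of 8 members were higher than vehicle and 0 were lower, against 42.2% of all tested genes past the threshold (21.6% higher and 20.7% lower). At 1 mg/kg 4 of 8 were higher and 2 were lower, against 45.9% of all tested genes (20.7% higher and 25.2% lower). The same shares of all tested genes are to be set beside the counts of the other gene lists below. The median log2 fold change of the members was 0.28 at 0.1 mg/kg and 0.20 at 1 mg/kg, beside 0.02 and -0.04 over all tested genes. Both comparisons use the same 3 vehicle samples.

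The libraries held between 40517062 and 51810956 reads by the spacing of their FPKM values, and vehicle libraries were the deeper ones. The first principal component held 69.4% of the variance and placed the vehicle samples between -55.0 and -47.6 and 4 of the 6 digoxin samples between 35.7 and 37.9. Replicate 2 of 0.1 mg/kg at -0.60 and replicate 1 of 1 mg/kg at 9.12 lay between them. On the second component, with 12.4% of the variance, replicate 1 of 1 mg/kg stood apart at 43.9, and all other samples lay between -19.1 and 1.17. The libraries at -0.60 and 9.12 are called intermediate below for their place on the first component only. Without these 2 intermediate libraries, a choice made after seeing the data, 4 members passed at 0.1 mg/kg, S100a1 being the added member, and 6 at 1 mg/kg. In that fit 61.5% of all tested genes passed at 0.1 mg/kg and 61.3% at 1 mg/kg, so calls rose over the whole table. No list of LLC cell markers was used here, so the tumour cell content was not checked. Of 7 tested T and NK cell markers, 6 were higher at 0.1 mg/kg (1 to 6 when single libraries were left out), and Cd4 was lower at 1 mg/kg. Of 5 keratinocyte markers measured, 1 reached the filter, Sbsn, which was higher by 0.86 and 1.01 on the log2 scale. Krt14, Krtdap and Dsg3 stayed at or below 0.0796 FPKM in every sample, and Krt10 lay at 0.402 to 0.671 FPKM in vehicle tumours, 0.0331 to 0.551 in 0.1 mg/kg tumours and 0.140 to 0.258 in 1 mg/kg tumours. In bulk tumours, fewer cells of a type and less RNA per cell cannot be told apart.

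S100a8 and S100a9, which encode the subunits of calprotectin, varied more than any other member. S100a8 had 33.6, 11.5 and 10.0 FPKM in vehicle tumours, 193, 62.6 and 31.2 FPKM at 0.1 mg/kg and 120, 147 and 280 FPKM at 1 mg/kg. All 3 tumours at 1 mg/kg lay above every vehicle tumour, whereas the lowest tumour at 0.1 mg/kg lay below the highest vehicle tumour. At 1 mg/kg S100a8 was higher than in vehicle by 3.35 on the log2 scale (SE 0.67, adjusted p 0.00505), which is 10.2-fold on the scale of FPKM + 1. At 0.1 mg/kg it was higher by 2.13 (SE 0.67, adjusted p 0.0332), but the call was lost when any 1 of 3 libraries was left out: the adjusted p was 0.0942 with a log2 fold change of 1.43 without replicate 1 of 0.1 mg/kg, 0.104 without vehicle replicate 2 and 0.110 without vehicle replicate 3. It was also lost with all genes in the fit, where the adjusted p was 0.0861, and on reads recovered from the table with limma-voom, where it was 0.0552.

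S100a9 followed the same order of samples at a higher level. It had 118, 50.8 and 31.8 FPKM in vehicle tumours, 425, 150 and 70.5 FPKM at 0.1 mg/kg and 297, 345 and 651 FPKM at 1 mg/kg. Again all tumours at 1 mg/kg exceeded all vehicle tumours, and the 0.1 mg/kg group overlapped vehicle. At 1 mg/kg S100a9 was higher than in vehicle by 2.79 (SE 0.67, adjusted p 0.0105), and leaving out any of the 9 libraries left this between 2.37 and 3.30 with the call in place. At 0.1 mg/kg the log2 fold change of 1.5 (SE 0.67, 95% interval -0.02 to 3.03) did not pass, with an adjusted p of 0.101, though it did at 0.0452 without replicate 3 of 0.1 mg/kg. Within the 0.1 mg/kg group, replicate 1 lay inside the range of the 1 mg/kg tumours for both genes, and replicate 3 lay between vehicle replicates 1 and 2.

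**Figure D1:**
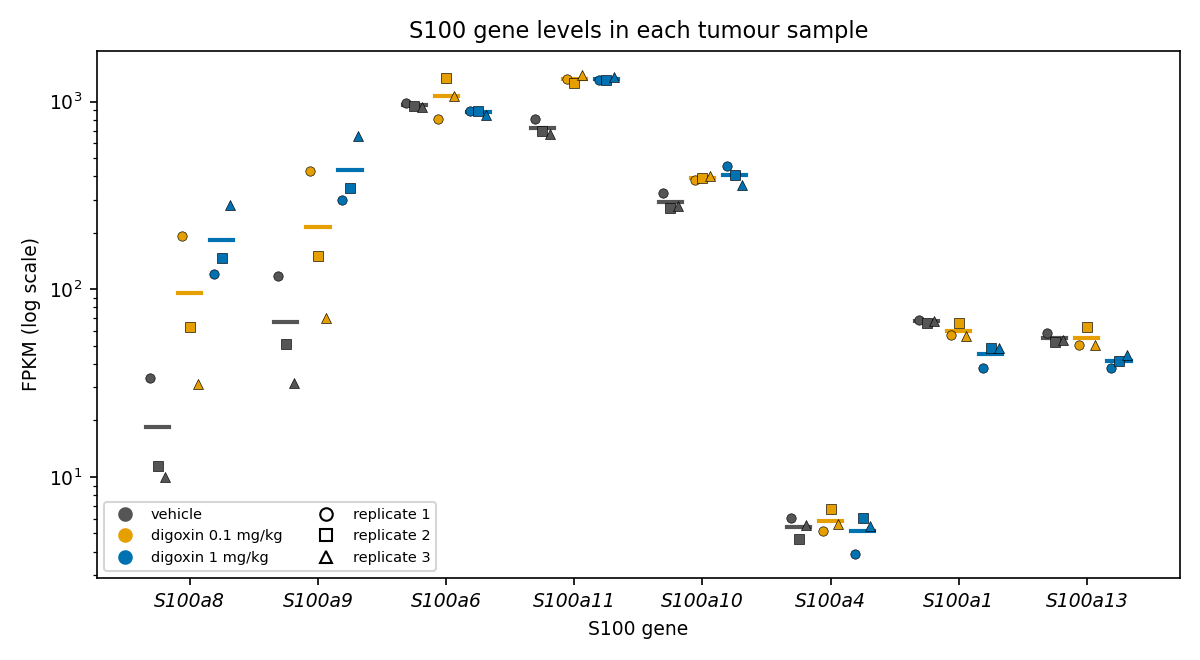
FPKM (vertical axis, log scale) of each of the 8 S100 genes (horizontal axis) in each sample, with vehicle in grey, 0.1 mg/kg in orange and 1 mg/kg in blue; circles, squares and triangles are replicates 1, 2 and 3 and horizontal bars are group means. S100a11 separated both digoxin groups from vehicle, S100a8 and S100a9 spread widely within the digoxin groups, and S100a1 and S100a13 were lowest at 1 mg/kg.

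The calprotectin genes did not keep a fixed ratio. The ratio of S100a8 to S100a9 FPKM was 0.284, 0.226 and 0.314 in vehicle tumours, 0.454, 0.416 and 0.443 in 0.1 mg/kg tumours and 0.403, 0.426 and 0.429 in 1 mg/kg tumours. Each of the 6 digoxin tumours had a higher ratio than each vehicle tumour, whatever its level of either gene, and the 2 doses overlapped. This ratio is given as values, with no test.

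S100a8 and S100a9 lie next to each other among the S100 genes of chromosome 3, on opposite strands. Their upstream sequences, from RefSeq on GRCm38.p6, are shown because these members moved together, and each window ends before the most upstream annotated transcript start. The first covers bases 250 to 94 before the RefSeq start of S100a8 at chr3:90668821-90668977 on the plus strand, and the second bases 250 to 1 before that of S100a9 at chr3:90695722-90695971 on the minus strand. Capitals mark matches, on either strand, to the C/EBP pattern TTNNGNAA and the GC box GGGCGG.
S100a8: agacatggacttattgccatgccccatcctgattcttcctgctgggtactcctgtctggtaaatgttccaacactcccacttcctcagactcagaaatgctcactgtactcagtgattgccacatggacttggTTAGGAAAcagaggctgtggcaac
S100a9: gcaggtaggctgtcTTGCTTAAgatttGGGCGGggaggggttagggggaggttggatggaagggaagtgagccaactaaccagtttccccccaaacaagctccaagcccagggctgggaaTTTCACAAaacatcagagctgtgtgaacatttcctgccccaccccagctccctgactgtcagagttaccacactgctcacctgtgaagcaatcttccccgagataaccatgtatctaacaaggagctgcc
C/EBP factors are regulators of myeloid genes. The S100a8 window held 1 C/EBP match and the S100a9 window 2 C/EBP matches and 1 GC box, with no overlap between matches. Of 32851 promoters cut to the same windows, 27.1% held a C/EBP match in the shorter window and 36.8% in the longer, and 32.7% held a GC box in the longer. The other patterns searched on both strands were the TATA box TATAAA, the AP-1 pattern TGANTCA and the STAT factor pattern TTCNNNGAA, and they had no match in these letters.

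Markers of neutrophils moved in the same libraries. Of 10 neutrophil markers, 4 were higher at 0.1 mg/kg (Csf3r, Ly6g, Mmp8 and Padi4) and 7 at 1 mg/kg, and 0 were lower at either dose. Leaving out single libraries gave 2 to 6 higher markers for the low dose and 4 to 7 for the high dose. Padi4, the enzyme that citrullinates histones in neutrophils, was higher by 3.0 at 0.1 mg/kg (SE 0.18, adjusted p 0.000101) and by 2.74 at 1 mg/kg (SE 0.18, adjusted p 0.000128). Mmp8, the neutrophil collagenase, was higher by 2.2 and 3.10, and Ly6g, the surface antigen of mouse neutrophils, by 0.96, a call lost when any 1 of 3 libraries was left out, and 1.60. Retnlg, which encodes a resistin-like protein of neutrophils, had log2 fold changes of 2.27 at 0.1 mg/kg, which did not pass, and 3.99 at 1 mg/kg, which did. The median log2 fold change of the list was 0.94 at 0.1 mg/kg and 1.35 at 1 mg/kg. Ly6g was listed at 0 in vehicle replicate 2 and otherwise lay between 0.123 and 3.33 FPKM. It reached the filter through digoxin tumours alone, with at most 0.458 FPKM in vehicle tumours, so the filter favoured a higher result for it. Padi4, Mmp8 and Cd177 reached 1 FPKM in vehicle replicate 1 but in no other vehicle tumour. They too needed digoxin tumours to reach the filter, so the counts and medians of this list are to be read with caution.

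The summed FPKM of the 10 neutrophil markers was 81.7, 49.3 and 44.8 in vehicle tumours, 225, 94.2 and 62.3 in 0.1 mg/kg tumours and 128, 207 and 317 in 1 mg/kg tumours. The order of the 3 samples in the vehicle group and in each dose group was the order of S100a8 and S100a9. Set against this sum, S100a8 and S100a9 together were 1.86, 1.26 and 0.934 times the markers in vehicle tumours, 2.75, 2.26 and 1.63 times at 0.1 mg/kg and 3.27, 2.37 and 2.93 times at 1 mg/kg. By this measure the 1 mg/kg group lay above vehicle and the 0.1 mg/kg group overlapped it, but the result depended on the markers summed. Mmp9, a gelatinase that other cells also make, was 49.1 to 68.3% of the sum in vehicle tumours, 14.4 to 21.7% in 0.1 mg/kg tumours and 8.72 to 14.9% in 1 mg/kg tumours, with log2 fold changes of -0.77 and -0.45 that did not pass. Without Mmp9, a choice made after seeing the data, the ratios were 3.65, 3.07 and 2.94 in vehicle tumours, 3.27, 2.64 and 2.09 in 0.1 mg/kg tumours and 3.58, 2.79 and 3.34 in 1 mg/kg tumours, and all 3 groups overlapped. The sum of the other 9 markers was 14.2 to 41.6 FPKM in vehicle tumours, 48.8 to 189 in 0.1 mg/kg tumours and 116 to 279 in 1 mg/kg tumours, so that every digoxin tumour exceeded every vehicle tumour. Padi4 did not follow that order at 0.1 mg/kg, where it had 15.6, 12.6 and 16.1 FPKM and S100a8 ran between 31.2 and 193 FPKM. The sum without Mmp9 in turn held much Retnlg at 1 mg/kg. Retnlg had 17.6, 3.17 and 2.99 FPKM in vehicle tumours and 103, 29.4 and 9.97 FPKM at 0.1 mg/kg. At 1 mg/kg it had 55.6, 114 and 189.5 FPKM. Ratios without Retnlg were not computed, so the overlap without Mmp9 holds for that choice of markers only. The part of neutrophil content in the S100a8 and S100a9 results was not tested.

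**Figure D2:**
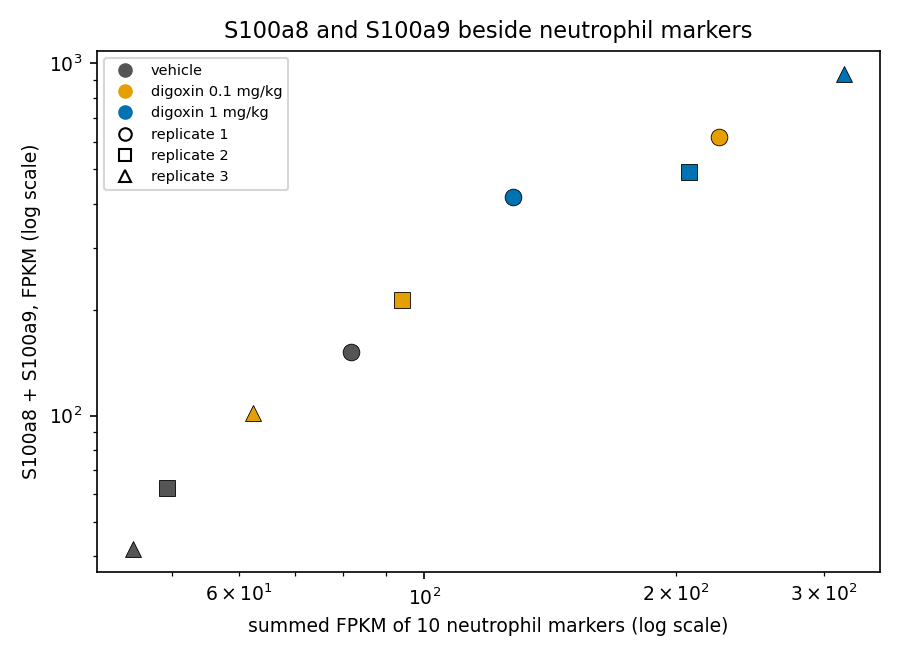
Sum of S100a8 and S100a9 (vertical axis, FPKM, log scale) against the summed FPKM of 10 neutrophil markers (horizontal axis, log scale) in the 9 samples, coloured by group, with marker shape for the replicate. Replicate 3 of 0.1 mg/kg, with a marker sum of 62.3 that includes Mmp9, lies among the vehicle tumours, and replicate 1 of 0.1 mg/kg lies with the 1 mg/kg tumours at the upper right.

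Genes for granule proteins of immature granulocytes were higher as well. Of 9 such genes 5 reached the filter, and 5 were higher at 0.1 mg/kg and 5 at 1 mg/kg, or 2 to 5 and 4 to 5 when single libraries were left out. Ltf, Camp and Ngp reached the filter through digoxin tumours alone, with at most 0.119, 0.264 and 0.294 FPKM in vehicle tumours. The filter thus favoured a higher result for them, and the counts and medians of this list carry little weight. Ngp, neutrophilic granule protein, was higher by 2.39 and 3.33 at 0.1 and 1 mg/kg, Camp, the cathelicidin precursor, by 1.31 and 1.1, and Lcn2, the siderophore-binding lipocalin, by 2.09 and 2.89. Chil3, a chitinase-like protein of myeloid cells, was higher by 1.80 and 3.44. The low-dose calls of Lcn2 and Chil3 were each lost when any 1 of 6 libraries was left out, with log2 fold changes down to 1.06 for Lcn2 and 1.08 for Chil3, and the Chil3 values at 0.1 mg/kg overlapped vehicle. The medians of the 5 tested genes were 1.80 and 2.89. Elane, the neutrophil elastase gene, was listed at 0 in all 3 vehicle tumours and had 0.522, 0.615 and 0.422 FPKM at 0.1 mg/kg and 0.0962, 0.401 and 0.251 FPKM at 1 mg/kg, too low to be tested. The summed FPKM of the 9 genes ran between 5.99 and 11.9 in vehicle tumours, 21.6 and 138 in 0.1 mg/kg tumours and 67.3 and 137 in 1 mg/kg tumours.

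Markers of monocytes and macrophages, the other source of calprotectin, moved in both directions. Of 9 markers, 5 were higher and 1 lower, Ccr2, at 0.1 mg/kg, and 5 were higher and 3 lower at 1 mg/kg, Ccr2, Adgre1 and Csf1r, the last a call lost when any 1 of 7 libraries was left out. Without single libraries the higher markers numbered 3 to 6 for the low dose and 1 to 5 for the high dose. Itgam, the CD11b integrin chain that neutrophils also carry, was higher by 1.35 and 1.25 at 0.1 and 1 mg/kg, and Cd68, a lysosomal glycoprotein of macrophages, by 0.77 and 0.61. Fcgr1, a high-affinity Fc receptor, was higher by 1.61 and 1.24. The high-dose calls of Cd68 and Fcgr1 were lost without vehicle replicate 3, with adjusted p-values of 0.0534 for Cd68 and 0.0551 for Fcgr1. Ccr2, the chemokine receptor of inflammatory monocytes, was lower, with log2 fold changes of -0.33, a call lost when any 1 of 7 libraries was left out, and -0.67. The medians of the list were 0.77 and 0.61. Lyz2, the lysozyme gene, held 70.9 to 87.5% of the list's summed FPKM in each sample and did not pass at either dose, with log2 fold changes of -0.15 and -0.36. With Lyz2 the sum overlapped between all 3 groups, at 1790 to 2085 in vehicle tumours, 1666 to 2415 in 0.1 mg/kg tumours and 1377 to 1938 in 1 mg/kg tumours. Without Lyz2, again a choice made after seeing the data, the other 8 markers summed to 224 to 283 in vehicle tumours, 356 to 459 in 0.1 mg/kg tumours and 326 to 400.1 in 1 mg/kg tumours, and every digoxin tumour lay above every vehicle tumour.

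S100a11 and S100a6 were the most abundant members, together 61.4 to 80.0% of the members' summed FPKM in each sample. S100a11, a partner of annexin A1 with roles in membrane repair, had the smallest adjusted p of the members at both doses. It had 810, 693 and 672 FPKM in vehicle tumours, 1320, 1251 and 1389 FPKM at 0.1 mg/kg and 1304, 1309 and 1354 FPKM at 1 mg/kg. No digoxin tumour overlapped a vehicle tumour, and the intermediate libraries, at 1251 and 1304 FPKM, lay with the other digoxin tumours. S100a11 was higher than in vehicle by 0.87 at 0.1 mg/kg (SE 0.10, adjusted p 0.000759) and by 0.87 at 1 mg/kg (SE 0.10, adjusted p 0.000633), and both calls held without any of the 9 libraries. Its rank among all genes by mean FPKM was 37 in vehicle tumours and 14 at either dose. Between the doses the log2 difference was 0.00 (1 mg/kg minus 0.1 mg/kg, 95% interval -0.22 to 0.23).

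The sequence upstream of S100a11 is shown because its level differed from vehicle at both doses in every sample. It covers bases 250 to 9 before the RefSeq start, at chr3:93520246-93520487 on the plus strand of GRCm38.p6, and capitals mark matches to the AP-1 pattern TGANTCA and the GC box GGGCGG.
S100a11: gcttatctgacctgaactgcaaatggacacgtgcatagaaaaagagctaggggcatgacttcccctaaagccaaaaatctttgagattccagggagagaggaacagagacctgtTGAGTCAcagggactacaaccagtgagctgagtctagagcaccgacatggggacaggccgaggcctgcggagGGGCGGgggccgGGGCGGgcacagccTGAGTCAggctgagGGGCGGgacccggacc
The window held 2 AP-1 matches and 3 GC boxes, with no overlap between matches. An AP-1 match was found in 6.6% and a GC box in 31.6% of the 32851 promoters over the same window. The C/EBP, STAT and TATAAA patterns had no match in these letters.

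S100a6, or calcyclin, binds annexins and the calcyclin-binding protein and had rank 24 among all genes in vehicle tumours. It had 988, 952 and 937 FPKM in vehicle tumours, 812, 1334 and 1069 FPKM at 0.1 mg/kg and 890, 886 and 852 FPKM at 1 mg/kg. The 0.1 mg/kg group spread to both sides of vehicle, and its highest value was that of intermediate replicate 2. At 1 mg/kg all 3 tumours lay below all 3 vehicle tumours by a small margin. The log2 fold changes were 0.13 at 0.1 mg/kg (95% interval -0.23 to 0.49, adjusted p 0.524) and -0.13 at 1 mg/kg (95% interval -0.49 to 0.23, adjusted p 0.525). S100a6 stood below S100a11 at 1 mg/kg, at 876 ± 20.9 FPKM beside 1322 ± 27.4 FPKM for S100a11 (SD, n = 3), and above it in vehicle tumours, at 959 ± 26.3 FPKM beside 725 ± 74.5 FPKM for S100a11 (SD, n = 3).

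S100a10, the p11 subunit that holds annexin A2 at the plasma membrane and is unusual in the family for not needing calcium, had 324, 272 and 278 FPKM in vehicle tumours, 383, 389 and 402 FPKM at 0.1 mg/kg and 454, 407 and 359 FPKM at 1 mg/kg. Digoxin tumours were all above vehicle tumours. The log2 fold change was 0.43 at 0.1 mg/kg (SE 0.11, adjusted p 0.0139) and 0.48 at 1 mg/kg (SE 0.11, adjusted p 0.00788). The call at 1 mg/kg held without any of the 9 libraries, while that at 0.1 mg/kg was lost without replicate 3 of 0.1 mg/kg (adjusted p 0.0512), vehicle replicate 2 (0.0559) or vehicle replicate 3 (0.0561).

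Anxa2, which encodes the annexin partner of S100A10, had log2 fold changes of -0.01 at 0.1 mg/kg and 0.15 at 1 mg/kg that did not pass. The ratio of S100a10 to Anxa2 FPKM was 0.949, 0.900 and 0.963 in vehicle tumours, 1.25, 1.14 and 1.45 in 0.1 mg/kg tumours and 1.06, 1.30 and 1.17 in 1 mg/kg tumours. Every digoxin tumour thus had a higher ratio than every vehicle tumour.

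**Figure D3:**
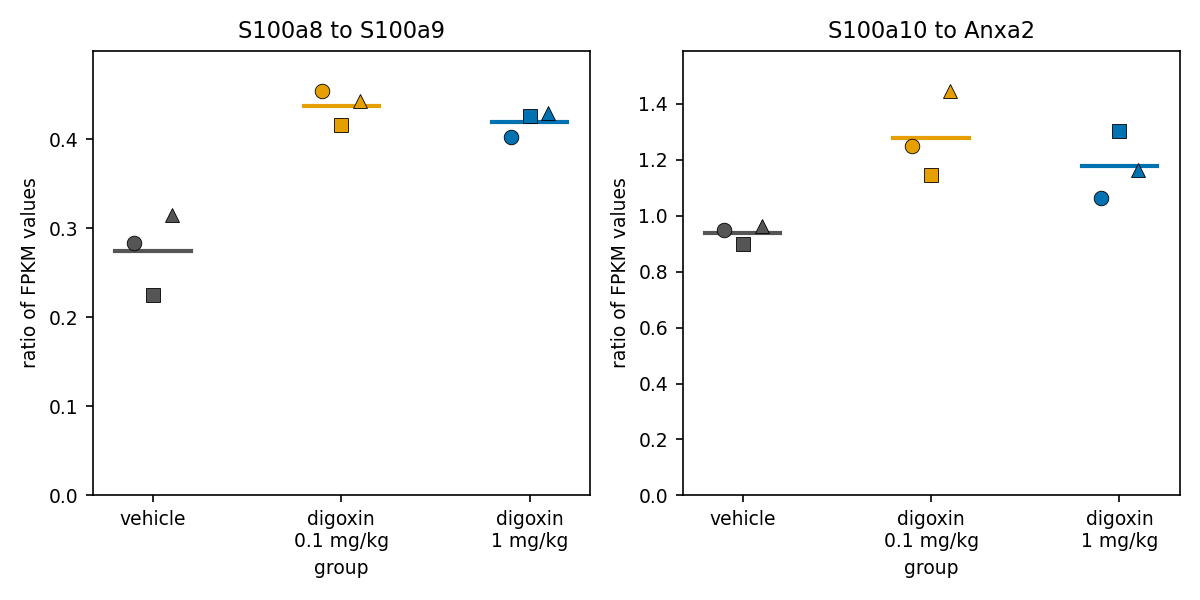
Ratio of S100a8 to S100a9 (left) and of S100a10 to Anxa2 (right), each a ratio of FPKM values from 0, in each sample by group; circles, squares and triangles are replicates 1, 2 and 3 and bars are group means. In both panels all digoxin tumours lie above all vehicle tumours.

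S100a4, also called metastasin, binds non-muscle myosin and is widely used as a marker of fibroblasts. It was the least abundant member, with 6.05, 4.65 and 5.55 FPKM in vehicle tumours, 5.15, 6.74 and 5.61 FPKM at 0.1 mg/kg and 3.89, 6.08 and 5.49 FPKM at 1 mg/kg. The 3 groups overlapped. Between 96 and 172 reads lay behind each value, and the log2 fold changes were 0.09 at 0.1 mg/kg (95% interval -0.27 to 0.45, adjusted p 0.667) and -0.07 at 1 mg/kg (95% interval -0.43 to 0.28, adjusted p 0.727). Of 8 fibroblast markers, 3 were higher (Col1a1, Col1a2 and Thy1) and 3 lower (Col3a1, Dcn and Pdgfra) at 0.1 mg/kg, and 1 was higher (Col1a1) and 4 lower (Col3a1, Dcn, Lum and Pdgfra) at 1 mg/kg. Leaving out single libraries gave 2 to 3 higher and 2 to 5 lower for the low dose, and 1 to 2 higher and 3 to 4 lower for the high dose. The low-dose calls of Thy1 and Col3a1 were lost when any 1 of 6 and any 1 of 3 libraries was left out, and the high-dose call of Lum when any 1 of 5 was. Dcn, the collagen-binding proteoglycan decorin, was lower by log2 fold changes of -1.36 and -1.96. The markers' summed FPKM was 984 to 1098 in vehicle tumours, 349 to 688 in 0.1 mg/kg tumours and 357 to 599 in 1 mg/kg tumours, and its part in the S100a4 values was not tested.

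S100a1 and S100a13 were lower in digoxin tumours at 1 mg/kg. S100a1, a regulator of the calcium pump and the ryanodine receptor of muscle, had 68.9, 66.2 and 67.3 FPKM in vehicle tumours, 56.9, 66.1 and 56.2 FPKM at 0.1 mg/kg and 38.2, 48.6 and 48.7 FPKM at 1 mg/kg. The values of both doses lay below vehicle, at 0.1 mg/kg by as little as 66.1 against 66.2 FPKM. The log2 fold change was -0.58 at 1 mg/kg (SE 0.11, adjusted p 0.00375), called without any of the 9 libraries too, and -0.18 at 0.1 mg/kg (SE 0.11, adjusted p 0.211). Without both intermediate libraries the change at 0.1 mg/kg was -0.25 with an adjusted p of 0.00392.

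S100a13 carries FGF1 and interleukin 1 alpha out of cells by a route that bypasses the secretory pathway. It had 58.6, 52.1 and 53.4 FPKM in vehicle tumours, 50.3, 63.1 and 50.6 FPKM at 0.1 mg/kg and 38.0, 41.3 and 44.5 FPKM at 1 mg/kg. The tumours at 1 mg/kg lay below all others. The log2 fold change was -0.40 at 1 mg/kg (SE 0.11, adjusted p 0.0160, or 0.0565 without vehicle replicate 1) and -0.01 at 0.1 mg/kg (95% interval -0.25 to 0.23). S100a1 and S100a13 overlap on opposite strands in the RefSeq gene models, and whether the authors counted by strand is not known here, so reads in the overlap cannot be told apart and the values of this pair are uncertain to that extent.

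Skeletal muscle is a tissue rich in S100A1. Of 12 muscle markers 10 were tested, and 4 were higher at each dose, among them Tnnt3, Pvalb and Atp2a1 at both, with Myh1 at 0.1 mg/kg and Actn3 at 1 mg/kg. Without single libraries these counts ran between 0 and 9 at 0.1 mg/kg and between 0 and 10 at 1 mg/kg. Their summed FPKM was 31.8 to 102 in vehicle tumours, 146 to 321 in 0.1 mg/kg tumours and 47.7 to 1034 in 1 mg/kg tumours. The muscle sum at 1 mg/kg thus overlapped vehicle. Myh1 and Casq1 reached the filter through digoxin tumours alone, with at most 0.702 and 0.505 FPKM in vehicle tumours. Pvalb, Atp2a1 and Actn3 reached 1 FPKM in vehicle replicate 1 but in no other vehicle tumour, so they too needed digoxin tumours. The filter thus favoured a higher result for these genes. The part of muscle in the S100a1 result was not tested.

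**Figure D4:**
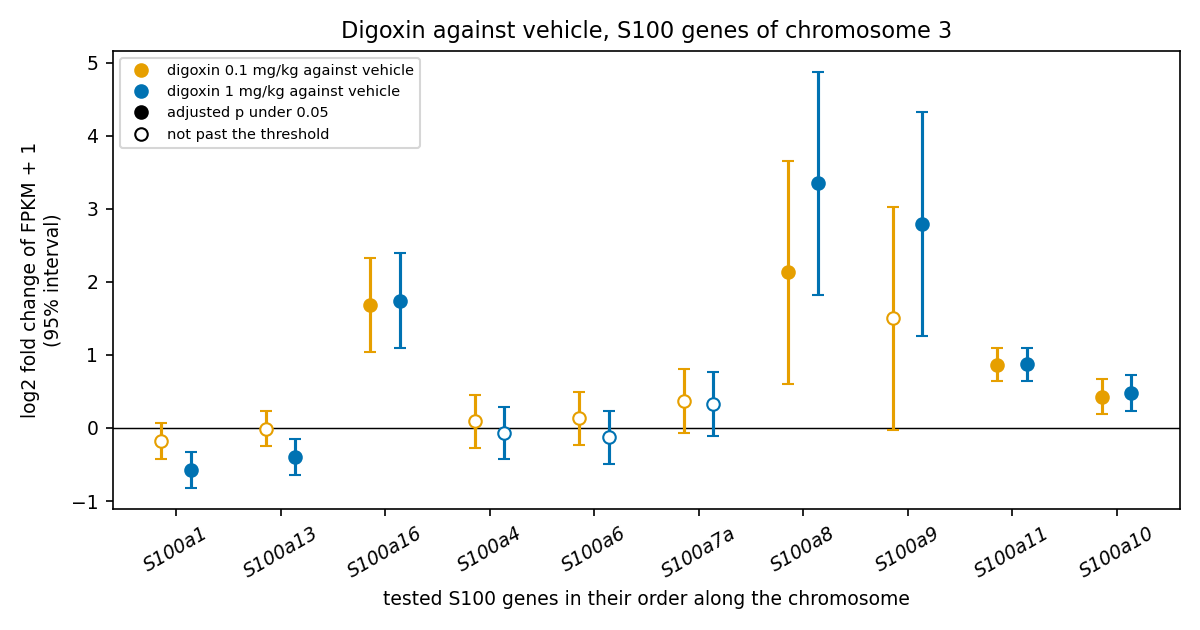
Log2 fold change of FPKM + 1 against vehicle (vertical axis, with 95% intervals) for the tested S100 genes of chromosome 3 in their order along the chromosome (horizontal axis), at 0.1 and 1 mg/kg; filled points passed the threshold. The estimates of S100a1 and S100a13 at the left end are at or below 0. Those of S100a16, S100a7a, S100a8, S100a9, S100a11 and S100a10 are above 0 at both doses. Of these, S100a7a passed at neither dose and S100a9 did not pass at 0.1 mg/kg.

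Directly between the doses, 0 of 8 members passed by limma or by limma-voom, beside 0.0146% of all tested genes called by limma, which is 2 genes. Limma-voom on recovered reads also called 2 genes. An unadjusted p under 0.05 by limma was found for 2 of 8 members, S100a1 and S100a13, beside 1856 of the 13687 tested genes. The largest differences among the members, 1 mg/kg minus 0.1 mg/kg on the log2 scale, were 1.29 for S100a9 (95% interval -0.24 to 2.81, adjusted p 0.458) and 1.22 for S100a8 (95% interval -0.31 to 2.75, adjusted p 0.484). S100a1 differed by -0.40 (95% interval -0.65 to -0.16, adjusted p 0.181) and S100a13 by -0.39 (95% interval -0.63 to -0.15, adjusted p 0.184). These were the 2 of 8 members whose doses did not overlap, beside 17.0% of all tested genes. The S100a6 difference was -0.26 (95% interval -0.62 to 0.10), that of S100a4 -0.16 (-0.52 to 0.20) and that of S100a10 0.05 (-0.19 to 0.29).

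The non-overlap counts against vehicle were 3 of 8 members at 0.1 mg/kg, where 60.2% of all tested genes did not overlap, and 7 of 8 at 1 mg/kg, where 58.3% did not. The summed FPKM of the 8 members was 2408, 2102 and 2055 in vehicle tumours, 3245, 3323 and 3075 in 0.1 mg/kg tumours and 3145, 3190 and 3594 in 1 mg/kg tumours. Every digoxin tumour thus had a higher summed FPKM of the members than every vehicle tumour.

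Of the 10 further S100 genes in the table, 2 passed the filter on low values. S100a16, a widely expressed member that lies between S100a13 and S100a4 on the chromosome, had 11, 10.3 and 10.9 FPKM in vehicle tumours, 45.9, 23.1 and 46.3 FPKM at 0.1 mg/kg and 26.7, 45.2 and 46.6 FPKM at 1 mg/kg. All digoxin tumours exceeded vehicle, the 2 intermediate libraries by the smallest margins. S100a16 was higher by 1.68 at 0.1 mg/kg (SE 0.28, adjusted p 0.00314) and by 1.74 at 1 mg/kg (SE 0.28, adjusted p 0.00227). S100a7a, the mouse relative of psoriasin, had 1.69 to 3.47 FPKM in vehicle tumours, 3.04 to 4.07 in 0.1 mg/kg tumours and 3.11 to 3.85 in 1 mg/kg tumours, and passed at neither dose.

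S100a14, an epithelial member, stayed under the filter with 0.119, 0.266 and 0.123 FPKM in vehicle tumours, 0.770, 0.216 and 0.815 FPKM at 0.1 mg/kg and 0.877, 1.21 and 1.53 FPKM at 1 mg/kg. With all genes in the fit its log2 fold change at 1 mg/kg was 0.91 (SE 0.19, adjusted p 0.0162) and at 0.1 mg/kg 0.43 (adjusted p 0.177). S100a3 lay between 0.305 and 0.637 FPKM in every sample, and S100a5 between 0 and 1.13. S100a2, S100a7l2, S100b, S100g and S100z stayed at or below 0.377 FPKM in every sample. Of the 15 S100 genes found on chromosome 3, S100a11 and S100a10 stand last in the order, and S100a1 and S100a13 first.

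Receptors and coreceptors for S100 alarmins were higher or not called. Of 9 genes, 4 were higher and 0 lower at 0.1 mg/kg, and likewise at 1 mg/kg, beside 21.6% and 20.7% of all tested genes higher. Without single libraries 2 to 5 were higher for the low dose and 4 for the high dose, and the medians of the list were 0.42 and 0.28. Alcam, an adhesion molecule reported to bind S100B, was higher by 0.42 and 0.67 at 0.1 and 1 mg/kg, and Ly96, the MD-2 subunit of the TLR4 complex, by 0.63 and 0.47. Cd36, a scavenger receptor, was higher by 0.94, a call lost when any 1 of 6 libraries was left out, and 1.90. Cd14, the TLR4 coreceptor, had 187.6, 85.5 and 94.0 FPKM at 1 mg/kg and 52.1, 38.3 and 31.3 FPKM in vehicle tumours, a log2 fold change of 1.51 (SE 0.34, adjusted p 0.00768).

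The best known receptors, TLR4 and RAGE, differed in their calls. Tlr4 did not pass, with log2 fold changes of -0.14 at 0.1 mg/kg (adjusted p 0.239) and -0.18 at 1 mg/kg (adjusted p 0.134). Ager, which encodes RAGE, was higher by 0.68 at 0.1 mg/kg (adjusted p 0.0460), but the call was missing from 6 of the 9 fits with a library removed, where the adjusted p reached 0.157, and it had a log2 fold change of 0.23 at 1 mg/kg that did not pass.

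Partners of S100 proteins inside the cell and at its surface were called in both directions, in no larger a share than all tested genes. Of 13 genes 11 were tested, with 1 higher and 2 lower at 0.1 mg/kg and 2 higher and 3 lower at 1 mg/kg. Over all tested genes 42.2% passed at 0.1 mg/kg and 45.9% at 1 mg/kg. Without single libraries the lower partners numbered 0 to 4 for the low dose and 1 to 4 for the high dose, and the higher ones 1 for the low dose and 0 to 2 for the high dose. The medians of the list were -0.05 and 0.03. Plgrkt, a receptor for plasminogen, was higher by 0.92 and by 0.66, where the high-dose call was lost when any 1 of 4 libraries was left out. Ahnak, the scaffold bound by S100A10 and annexin A2, and Atp2a2, the calcium pump bound by S100A1, were the genes lower at 0.1 mg/kg, by log2 fold changes of -0.47 and -0.31. At 1 mg/kg Anxa6 (-0.51), Cacybp (-0.39), the partner of S100A6, and Plat (-0.63), the tissue plasminogen activator, were lower. When single libraries were left out, the calls were lost in 5 of 9 fits for Ahnak, 4 for Atp2a2, 1 for Anxa6, 2 for Cacybp and 6 for Plat.

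Il1a, the alarmin cytokine exported with S100A13, had 12.4, 2.38 and 4.4 FPKM at 1 mg/kg and 0.302, 0.486 and 0.254 FPKM in vehicle tumours, a log2 fold change of 2.22 (SE 0.61, adjusted p 0.0181, or at most 0.0569 without vehicle replicate 1 or 3). It passed at 1 mg/kg, where S100a13 was lower. At 0.1 mg/kg its values of 5.62, 0.472 and 0.865 FPKM overlapped vehicle. Il1a reached the filter through digoxin tumours alone, so the filter favoured a higher result for it. Among 5 other alarmins, Hmgn1 and Il1a were higher and Hmgb2 and Hmgb1 lower at 1 mg/kg, and Hmgb2 was lower at 0.1 mg/kg, a call lost when any 1 of 3 libraries was left out. The medians of the list were -0.16 for the low dose and -0.28 for the high dose. Hmgn1, a nucleosome-binding protein, was higher by 0.55 at 1 mg/kg, and the chromatin proteins Hmgb2 and Hmgb1 were lower by log2 fold changes of -0.43 and -0.28 at 1 mg/kg, where the Hmgb1 call was lost when any 1 of 5 libraries was left out.

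The phagocyte NADPH oxidase, whose activation S100A8 and S100A9 promote by carrying arachidonic acid, had 5 of 5 listed genes higher at 0.1 mg/kg and 1 of 5, Ncf1, at 1 mg/kg, or 2 to 5 and 0 to 1 when single libraries were left out and 2 at 1 mg/kg without both intermediate libraries. The medians of these genes were 0.63 and 0.12. Ncf4 was higher by 0.63 at 0.1 mg/kg, with 36.3, 25.0 and 27.0 FPKM at 0.1 mg/kg and 19.4, 17.3 and 18.6 FPKM in vehicle tumours, and had a log2 fold change of -0.00071 at 1 mg/kg. Rac2, the small GTPase of the complex, was higher by 0.82, Cyba, the p22 chain, by 0.55 and Cybb, the catalytic chain, by 0.89 at 0.1 mg/kg, and these 3 did not pass at 1 mg/kg. The low-dose call of Cyba was lost when any 1 of 4 libraries was left out, and that of Cybb when any 1 of 5 was. The Ncf1 call was lost when any 1 of 6 was left out at 0.1 mg/kg and any 1 of 5 at 1 mg/kg. Between the doses 0 of 5 passed by limma, and 0 by limma-voom. An unadjusted p under 0.05 by limma was found for 4 of 5 (Cyba, Cybb, Ncf4 and Rac2), beside 1856 of the 13687 tested genes.

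Each member was last compared with the other tested genes for likeness of pattern, leaving out predicted genes, Riken clones and pseudogenes. The measure was the root mean square difference of log2(FPKM + 1), each gene centred on its own mean over the 9 samples. Nearest to S100a8 was Chil3 at 0.282, then S100a9 at 0.305, against a spread of S100a8 around its own mean of 1.60. S100a9 was nearest to S100a8 at 0.305 and to Stfa2l1, a stefin gene, at 0.370. S100a11 lay nearest to Zyx, a focal adhesion protein, at 0.0752 and St3gal1, a sialyltransferase, at 0.0817, and its own spread was 0.417. The gene nearest to S100a10 was Rnh1, the ribonuclease inhibitor, at 0.0576, followed by Dpcd at 0.0749.

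Zyx followed the pattern of S100a11 with 60.8, 60.2 and 50.9 FPKM in vehicle tumours, 101.6, 90.8 and 105 FPKM at 0.1 mg/kg and 106.7, 101.9 and 100.7 FPKM at 1 mg/kg. S100a1 was nearest to Clpp, a mitochondrial protease subunit, at 0.0575 and to Ctdsp1, a phosphatase, at 0.0595, and S100a13 to Ssna1 at 0.0497 and to Mrpl20 at 0.0589. S100a6 was nearest to Cox5b at 0.0821 and Snhg20 at 0.0895, and S100a4 to Mrpl27 at 0.0700 and Itgb3bp at 0.0740. The likeness is a description over 9 samples of 3 groups.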

How the data were processed

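Poly(A) RNA of 9 tumour samples (3 per group) was sequenced as 150 bp read pairs, per the labels' protocols. The values are the FPKM the authors deposited per gene. The submitters' processing notes name fastp 0.22.0, HISAT2 2.2.1 and the build GRCh38, although the symbols are those of mouse. How reads were counted, with which annotation and on which strand, is not given in the sources used here, and the coordinates given are those of the RefSeq sequences.

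Genes that reached 1 FPKM in 3 or more samples were tested with limma 3.58.1 (R 4.3.3, moderated with a trend) on log2(FPKM + 1), with 1 fit over the 9 samples, 6 residual degrees of freedom and two-sided p-values adjusted by Benjamini-Hochberg over all tested genes. The pseudocount of 1 makes fold changes of low genes too small. The fit was tested on simulated data. Spacing of the FPKM values gave whole reads, within 0.03 reads, for 99.9% of tested genes, and limma-voom was run on those. Alternatives were other pseudocounts, filters and scalings, fits of 2 groups, a replicate block and leaving out each library.

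The text names the 8 members, the other S100 genes, up to 4 genes with the smallest p in each list and the genes of the FPKM ratios. It also names the 2 tested genes nearest in pattern to each member, with predicted genes, Riken clones and pseudogenes left out of that search. Other genes were named after their values were seen: Csf3r, Cd177, Mmp9, Elane, Ltf, Adgre1, Csf1r, Lyz2, Col3a1, Lum, Thy1, Atp2a1, Casq1, Tlr4, Ager, Ncf1, Ahnak, Atp2a2, Plat and the keratins, Krtdap and Dsg3. The members and lists were chosen with earlier results of these data known. Of the listed genes, 2 are not reported here and are left out of the counts, medians and sums of their lists. RefSeq promoter entries were matched for 7 of 8 members, all but S100a10.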

Additional observations from a re-analysis of the deposited data

How the results depend on the processing

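The members called numbered 1 to 3 at 0.1 mg/kg against vehicle, 5 to 6 at 1 mg/kg against vehicle and 0 between doses when single libraries were left out. The low of 1 came without vehicle replicate 2 or without vehicle replicate 3, where 25.5% and 25.4% of all tested genes passed. Of the member values under the alternatives, 451 kept direction and side of the threshold, 9 lost the call, 2 gained it and 18 turned. With the replicate block the members called stayed at 3, 6 and 0, and the tested genes called were 4967 at 0.1 mg/kg against vehicle, 5541 at 1 mg/kg against vehicle and 0 between doses. Deviations of same-numbered samples from their group means correlated between -0.441 and 0.279. The labels do not say that replicate numbers pair samples, and the samples were not treated as pairs. Over all tested genes, leaving out single libraries gave 3414 to 7074 calls at 0.1 mg/kg against vehicle, where all 9 gave 5781, and 4129 to 7373 at 1 mg/kg against vehicle, where all 9 gave 6277. Requiring a mean of 5 FPKM gave 4159 at 1 mg/kg, among fewer genes tested. The 2 calls between doses became 0 with a pseudocount of 0.1 or 0.01 and with only the 2 groups compared, 1 with a mean of 5 FPKM or equal medians, 10 with all genes in the fit, 0 to 133 when single libraries were left out, and 465 without both intermediate libraries (the cause was not tested).

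At 0.1 mg/kg the split of 2952 higher and 2829 lower genes became 2403 and 3552 with quantile normalization and 2368 and 3790 with TPM, where the median log2 fold change was -0.09. The high-dose split of 2833 higher and 3444 lower genes became 3849 and 3524 without replicate 1 of 1 mg/kg, and 4298 and 4094 without both intermediate libraries. Directions that turned belonged to values that did not pass, and with single libraries left out the other end of their range is in brackets. At 0.1 mg/kg against vehicle S100a4 was -0.0088 with TPM and -0.0034 without replicate 2 of 0.1 mg/kg or without both intermediate libraries (0.16 at most). S100a6 was -0.033 with quantile normalization and -0.041 without that replicate or without both (0.32 at most). S100a13 was 0.048 without replicate 1 of 0.1 mg/kg, 0.043 without replicate 3 and 0.042 without vehicle replicate 1 (-0.11 at least). At 1 mg/kg against vehicle S100a4 was 0.085 without replicate 1 of 1 mg/kg or without both (-0.18 at least). Between doses, without both intermediate libraries, S100a4 was 0.088, S100a10 -0.036 and S100a11 -0.025. Also between doses, S100a10 was -0.032 without replicate 1 of 1 mg/kg (0.14 at most), and S100a11 was -0.0076 with quantile normalization, -0.035 without replicate 2 of 0.1 mg/kg and -0.014 without replicate 3 of 1 mg/kg (0.041 at most). The 96 to 172 reads of S100a4 limit it by depth more than the other members.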
